A study of Mus musculus with 2 samples.

Results

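The 7 genes described here, Ccr7, S1pr1, Klf2, Lef1, Tcf7, Il7r and Satb1, were taken by name as genes of naive T cell homing and quiescence, from the 22337 gene symbols of the deposited single-cell matrix. They were followed across the 14 cell types that the authors assigned to 4441 cells, and across 6 heart grafts. The grafts were hearts of Bm12 mice, whose mutated MHC class II molecule I-A bm12 is recognized by CD4+ T cells of the C57BL/6 recipients, and were recovered on postoperative day 14 after heterotopic transplantation. Hearts 1 to 3 were labelled IL-33+, from Bm12 donors with intact Il33, and hearts 4 to 6 were labelled IL-33-, from Bm12 donors bred onto an Il33-deficient background. Both groups had the same C57BL/6 recipients and carried the same I-A bm12 mutation. The leukocyte-enriched isolates of the 6 hearts carried 1 hashtag each and were sequenced in 1 pooled library, with each heart taken here as 1 replicate.

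Naive T cells travel between blood and lymphoid organs in a resting state. CCR7 is the chemokine receptor that brings them into lymph nodes along CCL19 and CCL21, and S1PR1 is the receptor for sphingosine 1-phosphate that lets them out again. KLF2 is a transcription factor that keeps T cells quiescent and is known to activate S1pr1. LEF1 and TCF1, the product of Tcf7, are related DNA-binding factors of the Wnt pathway that hold the naive and stem-like states, SATB1 organizes chromatin in developing and resting T cells, and IL7R is the IL-7 receptor chain needed for survival. Several of these genes also act outside T cells, CCR7 in migrating mature dendritic cells, KLF2 and S1PR1 in endothelium and B cells, and IL7R together with CRLF2 as the receptor for TSLP.

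On GRCm38.p6 (RefSeq), Ccr7 lies at chr11:99144199-99155077, S1pr1 at chr3:115710433-115715055, Klf2 at chr8:72319062-72321654, Lef1 at chr3:131110297-131224357, Tcf7 at chr11:52246527-52283383, Il7r at chr15:9506159-9529941 and Satb1 at chr17:51736187-51833290. All 7 are protein-coding genes. The matrix counts 3' tags per gene, so it holds no information on which transcript of a gene was used. Of the 7 genes, 5 (Klf2, Lef1, Tcf7, Il7r and Satb1) matched the RefSeq promoter table by symbol, with 13 start sites. The windows of the first listed start of Klf2, Lef1 and Satb1 are shown, since these are regulators that were highest in the same cells and 1 of them is a KLF factor. Each runs from 250 to 31 bases before the start, 5' to 3' on the gene's strand. Capitals mark the letters CACCC, the core of KLF binding sites, or their reverse complement.
Klf2, chr8:72318812-72319031, plus strand: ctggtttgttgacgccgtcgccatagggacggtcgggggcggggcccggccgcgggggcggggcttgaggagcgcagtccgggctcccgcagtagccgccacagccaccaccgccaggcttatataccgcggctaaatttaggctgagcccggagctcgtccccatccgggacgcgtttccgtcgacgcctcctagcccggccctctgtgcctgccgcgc
Lef1, chr3:131110047-131110266, plus strand: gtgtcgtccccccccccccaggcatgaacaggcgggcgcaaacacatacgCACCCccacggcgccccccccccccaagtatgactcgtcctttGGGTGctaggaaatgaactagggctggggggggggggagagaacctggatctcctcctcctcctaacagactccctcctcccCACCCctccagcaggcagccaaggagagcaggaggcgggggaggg
Satb1, chr17:51833321-51833540, minus strand: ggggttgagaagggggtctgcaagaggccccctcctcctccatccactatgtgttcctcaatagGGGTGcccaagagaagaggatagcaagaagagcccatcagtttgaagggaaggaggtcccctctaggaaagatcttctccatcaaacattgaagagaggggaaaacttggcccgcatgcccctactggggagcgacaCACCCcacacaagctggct
The Klf2 window held no CACCC on either strand, the Lef1 window held 3, starting 200, 157 and 75 bases before the start, and the Satb1 window held 2, at 186 and 49 bases. CACCC was present in 10 of the 13 windows of these genes, against 47.8% of the 32851 windows of all genes. The 10 were windows of Lef1, Tcf7 and Satb1 alone and are not separate sequences, since the first and second Lef1 windows overlap and hold the same matches and a pair of Satb1 windows also overlaps. The letters CTTTGA or CTTTGT, the core bound by LEF1 and TCF1, were present in 2 of the 13 windows, a window of Lef1 and a window of Satb1, against 25.3% of all windows. The Lef1 window with 3 such matches belongs to a start inside the gene, and is shown here with those letters in capitals in either orientation.
Lef1, internal start, chr3:131156044-131156263, plus strand: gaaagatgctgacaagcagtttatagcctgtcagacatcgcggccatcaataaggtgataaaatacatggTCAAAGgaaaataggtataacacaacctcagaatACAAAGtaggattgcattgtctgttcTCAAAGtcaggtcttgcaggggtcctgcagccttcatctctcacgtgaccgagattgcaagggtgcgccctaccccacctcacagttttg
These matches are letters in the reference and carry no measurement from these hearts.

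The Il33 transcript was read first, in the annotated fibroblasts, as the gene that sets the graft groups apart. It had 7, 0 and 121 UMIs in the 34, 6 and 270 fibroblasts of hearts 1, 2 and 3, and 9, 3 and 5 UMIs in the 31, 4 and 30 fibroblasts of hearts 4, 5 and 6. Il33 RNA was thus counted in all hearts labelled IL-33- and does not check the labels. The 3' tag need not lie in the deleted part. The hearts gave 230 to 1666 cells with a median of 3291.5 to 4458 UMIs per cell. Tn cells numbered 19, 14 and 78 in the IL-33+ hearts and 102, 15 and 15 in the IL-33- hearts, so that hearts 3 and 4 held 180 of the 243.

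Cells annotated as naive T cells (Tn) had the highest mean level of 6 of the 7 genes among the 14 types. The values are means over cells of CPM, a gene's UMIs per 1000000 UMIs of the cell, and types are compared within a gene. Satb1, Lef1 and S1pr1 set Tn apart most fully, with every heart's Tn value above every heart's value in each of the 13 other types. Klf2 did so against 12 of the 13 and Tcf7 against 10. Il7r, in contrast, was apart from only 4 of the 13 types, and Ccr7 was higher in conventional dendritic cells (cDCs) and in effector memory and effector T cells (Tem/eff) than in Tn. The authors named the types from canonical markers, with Ccr7 and S1pr1 taken here to be among them, and cells were grouped on all genes. These differences between types are therefore given as levels and were not tested.

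**Figure D1:**
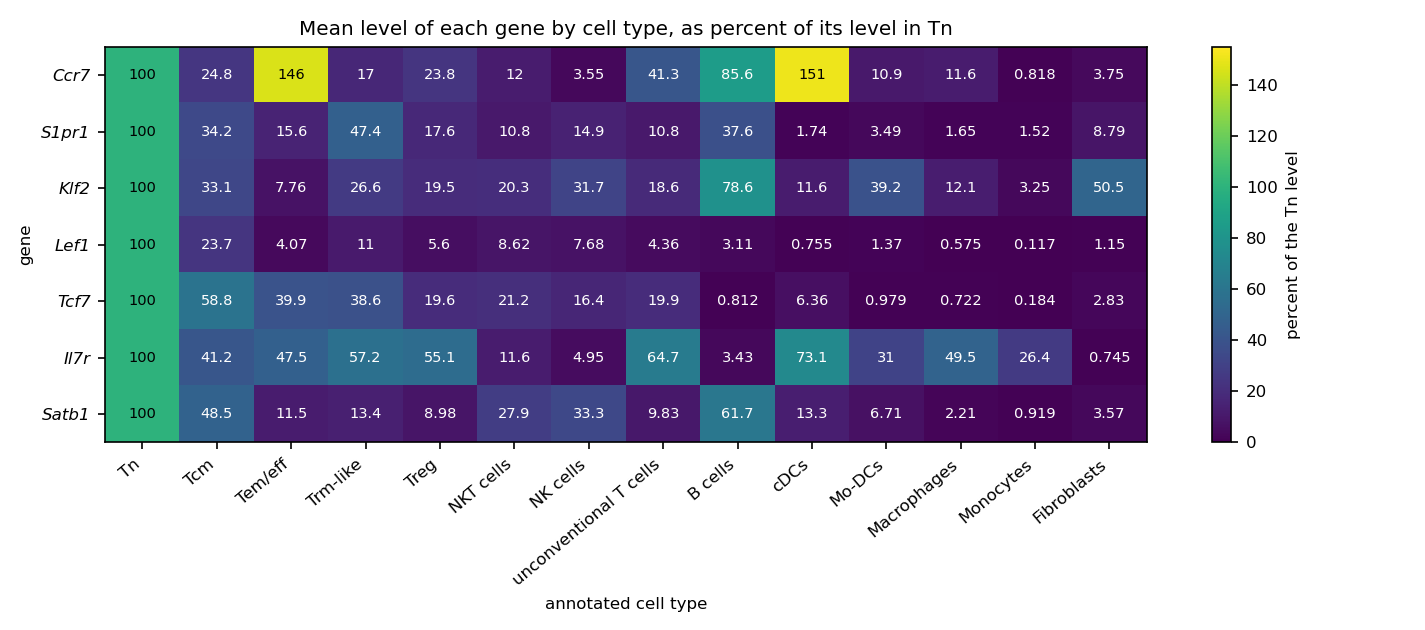
Mean CPM of each of the 7 genes (rows) in each of the 14 annotated types (columns), as a percent of the same gene's level in Tn. Ccr7 reached 146% of its Tn level in Tem/eff and 151% in cDCs, while no other gene exceeded its Tn level in any type.

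Single Tn cells carried several of the genes at once. When every cell was thinned to 1500 UMIs, the fewest in any cell, a Tn cell held a UMI of 4.12 of the 7 genes on average, against 2.32 in B cells, 2.04 in Tcm and 1.52 or fewer in the other 11 types. At least 4 of the 7 were found in 170 of the 243 Tn cells (70.0%), and in 40 of the 266 Tcm cells (15.04%). Of all 315 cells with at least 4 of the genes, 54.0% were annotated Tn. Cells with none of the 7 were 0 of 243 Tn cells and 82.5% of monocytes. For Tn, 3 counts in 243 cells, a rule of thumb and not an exact interval, would be a share of 1.23%. Before thinning, the Tn mean per heart was 4.50 to 5.44.

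**Figure D2:**
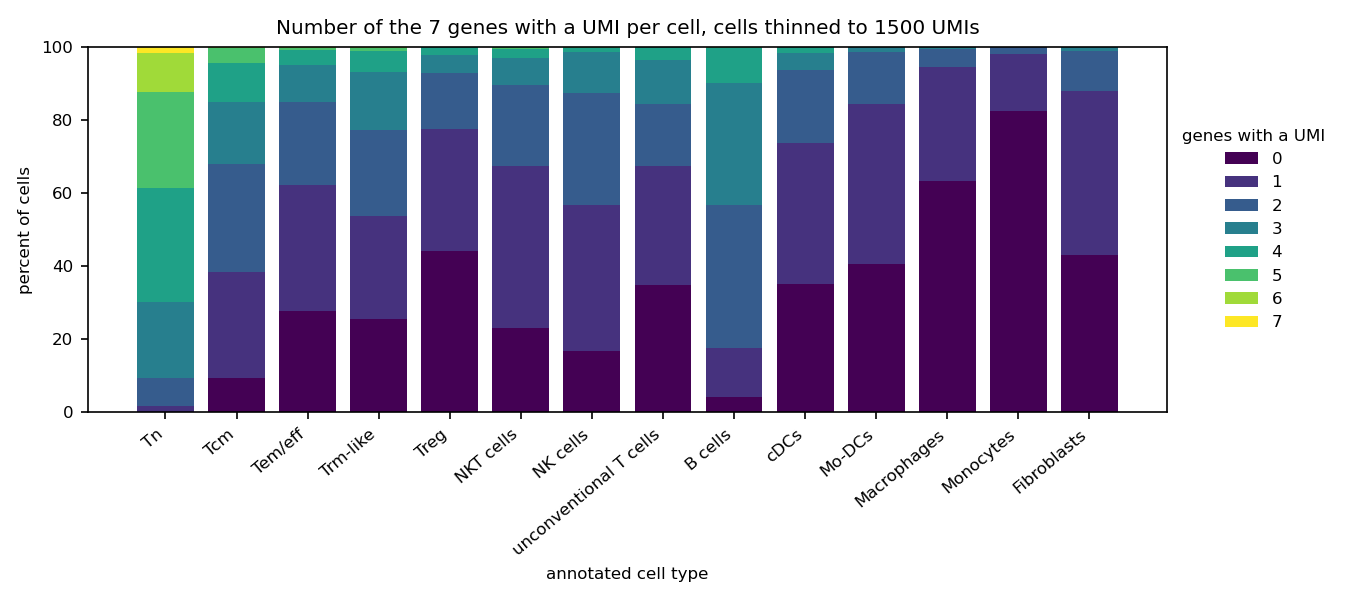
Percent of cells of each type with UMIs of 0 to 7 of the genes (colours), each cell thinned to 1500 UMIs. Tn is the only type in which most cells held 4 or more of them, at 70.0%, and it is followed by Tcm at 15.04% and B cells at 9.79%.

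Within Tn, genes were found together about as often as their separate shares give. Lef1 and Tcf7 were both present in 67 Tn cells, where the product of their shares gives 59.7, and Ccr7 and S1pr1 were both present in 86, where the product gives 90.2. The coreceptors divided Tn only in part, since 148 of the 243 cells had no UMI of Cd4, Cd8a or Cd8b1. Tcf7 was at 391 CPM in the 36 Tn cells with Cd4 alone and at 668 CPM in the 58 with Cd8 alone, and Satb1 was at 2754 and 1838 CPM in the same cells. Neither difference was tested.

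The list of 20 other naive and quiescence genes put Tn first less uniformly. Over all 14 types, 5 of the 20 had their highest mean in Tn. Among the 5 T cell types alone, 14 of the 20 did. These included Igfbp4 at 363 CPM and Bach2, a repressor of effector genes, at 263 CPM. Outside T cells, Igfbp4 was higher in fibroblasts, at 1244 CPM, and Bach2 in B cells, at 414 CPM. Foxo1, a factor upstream of Klf2 and Il7r, did not follow this order and had its lowest T cell level in Tn, at 269 CPM. Of 14 activation and residency genes, 11 had their lowest T cell level in Tn, among them Cd44 at 142 CPM and the residency-associated chemokine receptor Cxcr6 at 3.04 CPM. Beside the other T cell types, Tn thus had mostly high naive and quiescence transcripts and mostly low activation transcripts. The types were named from markers of these same cells, so these levels do not check the naive label. Summed T cell markers were 1454 to 1971 CPM per heart in Tn, and those of B cells, the type nearest to Tn in several genes, were 24.5 to 68.8 CPM there against 3007 to 5421 CPM in B cells.

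Ccr7 was the gene with the most varied carriers. Its mean was 918 CPM in cDCs, 888 CPM in Tem/eff, 607 CPM in Tn and 520 CPM in B cells, then 251 CPM in unconventional T cells and 150 CPM or less in the other types. The first 4 of these overlapped with their neighbours over hearts. After thinning, Ccr7 was found in 53.1% of Tn cells (95% exact interval 46.6 to 59.5) and in 42.5% of Tem/eff cells (37.1 to 48.1), but in 12.0% of Tcm cells, against a background of 1.30% in monocytes. The intervals cover counting error alone. Cells named central memory thus held less of the lymph node receptor on average than cells named effector memory, the reverse of the usual definition of these names. The Tcm mean joined different cells. Ccr7 was at 66.4 CPM in the 186 (69.9%) without Cd4 or Cd8 UMIs, 286 CPM in 71 with Cd8 alone and 747 CPM in 6 with Cd4 alone. In Tem/eff, Cd8 alone gave 350 CPM and Cd4 alone 1017 CPM. Summed NK cell markers in Tcm were 483 to 1807 CPM per heart, and their part was not tested.

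In Tem/eff, Ccr7 was at 524, 1227 and 830 CPM in hearts 1 to 3 and at 1392, 446 and 942 CPM in hearts 4 to 6. The groups overlapped. A Ccr7 UMI was present in 187 of the 327 Tem/eff cells, at a median depth of 5693 UMIs against 5701 in the others. The cells with Ccr7 had 268 CPM of Tcf7 against 108 CPM in the others. Their Klf2 was at 109 against 142 CPM, their Lef1 at 18.6 against 28.1 CPM and their S1pr1 at 177 against 119 CPM. Ccr7-bearing Tem/eff cells therefore had a higher mean of Tcf7 while their Klf2 was 6.87% and their Lef1 3.33% of the Tn level. This division was made after the data were seen and was not tested.

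S1pr1 was led by Tn at 976 CPM, and the next type was Trm-like at 463 CPM, above B cells at 367 CPM and Tcm at 334 CPM. Tn values of 716 to 1026 CPM over the 6 hearts lay above Trm-like values of 349 to 617 CPM. S1PR1 is the receptor that resident memory cells are known to lose, and in this annotation it was detected in 36.2% of thinned Trm-like cells (31.2 to 41.4), against 17.1% of Tem/eff cells (13.2 to 21.7) and 0.585% of cDCs. Other residency genes were divided. Itgae, which encodes the integrin CD103, was at 25.0 CPM in Trm-like cells, below Tregs at 40.2 CPM but above Tem/eff, Tn and Tcm at 10.9, 10.4 and 3.98 CPM. Itga1, which encodes the integrin CD49a, was at 76.5 CPM, the highest of the 5 T cell types. Cxcr6 was at 300.7 CPM, below Tregs at 586 CPM and above Tem/eff at 258 CPM. Cd69 was at 199 CPM, below Tcm at 299 CPM and Tregs at 250 CPM and close to Tn at 189 CPM. Zfp683 was at 0 CPM in Trm-like cells and at 1.48 CPM or less in the other T cell types. The markers of residency thus pointed both ways in these 362 cells, and Trm-like is used here as the authors' name. Within them, S1pr1 was at 787 CPM in the 45 cells with Cd4 alone and at 323 CPM in the 188 with Cd8 alone.

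Klf2 had its highest mean in Tn at 1583 CPM, followed by B cells at 1244 CPM and fibroblasts at 800 CPM. Monocyte-derived DCs (Mo-DCs) had 621 CPM over cells, of which 111 of 204 came from heart 3, and Tcm had 524 CPM. With hearts weighted equally the order of these was reversed, at 424 CPM in Mo-DCs and 513 CPM in Tcm, and Mo-DCs were above Tcm in 1 of 6 hearts. Mo-DCs also carried summed neutrophil markers of 1478 to 70185 CPM per heart. Tem/eff cells had 123 CPM, the lowest level of any type apart from monocytes at 51.5 CPM. The fibroblast value joined different cells, since 107 of the 375 annotated fibroblasts carried UMIs of at least 2 of 9 endothelial markers. These had 1003 CPM of Klf2 and 237 CPM of S1pr1, against 719 and 25.5 CPM in the others. After thinning to 1500 UMIs, 70 cells met the same rule, with 1248 and 344 CPM against 697 and 26.6 CPM. Heart 3 gave 76 of the 107 cells. S1pr1 was higher in the marker-bearing cells in each of the 5 hearts that held any, whereas Klf2 was lower in them in heart 1, at 415 against 1214 CPM, and in heart 4, at 598 against 853 CPM. S1pr1 in fibroblasts was thus carried mainly by cells with endothelial transcripts, while Klf2 was present in both parts.

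Lef1 and Tcf7 followed related but unequal orders. Lef1 was at 557 CPM in Tn, 132 CPM in Tcm, 61.3 CPM in Trm-like cells and 22.7 CPM in Tem/eff. Tcf7 was at 500, 294, 193 and 199 CPM in the same 4 types. As a percent of the Tn level, Tem/eff cells kept 39.9% of Tcf7 and 4.07% of Lef1, and the Tem/eff range over hearts for Tcf7 was narrow, at 171 to 241 CPM. In B cells, macrophages and monocytes both were at 17.3 CPM or less, with 3 Tcf7 UMIs in 286 B cells and 1 UMI of each gene in 154 monocytes. Over the 14 types the levels of Lef1 and Tcf7 had a Pearson r of 0.85 on the log2(CPM + 10) scale, close to that of Lef1 with S1pr1 at 0.86, while Il7r with Klf2 had -0.28. These correlations share cells and depth and are descriptive.

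Satb1 stood at 2635 CPM in Tn with a narrow range of 2288 to 2771 CPM over hearts, followed by B cells at 1626 CPM, Tcm at 1277 CPM, NK cells at 878 CPM and NKT cells at 734 CPM. Its ranges were apart between Tn and B cells, Tcm and NK cells, and NKT and Trm-like cells, which made 3 of the 6 separated steps among the 91 neighbouring pairs of types over all 7 genes. The effector end was low, with 303.3 CPM in Tem/eff and 237 CPM in Tregs. Satb1 was found in 93.0% of thinned Tn cells (89.0 to 95.9), the highest share of any of the genes in any type.

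Il7r was found in T cells and myeloid cells. It had 204 CPM in Tn, 149 CPM in cDCs, 132 CPM in unconventional T cells, 117 CPM in Trm-like cells, 112 CPM in Tregs and 101 CPM in macrophages, and none of its 13 neighbouring pairs of types was apart over hearts. Tn values themselves ran from 49.5 CPM in heart 6 to 298 CPM in heart 3. Crlf2, its partner in the TSLP receptor, was highest in Mo-DCs at 92.3 CPM. In NK cells and B cells Il7r was at 10.1 CPM or less, and fibroblasts held 2 UMIs.

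**Figure D3:**
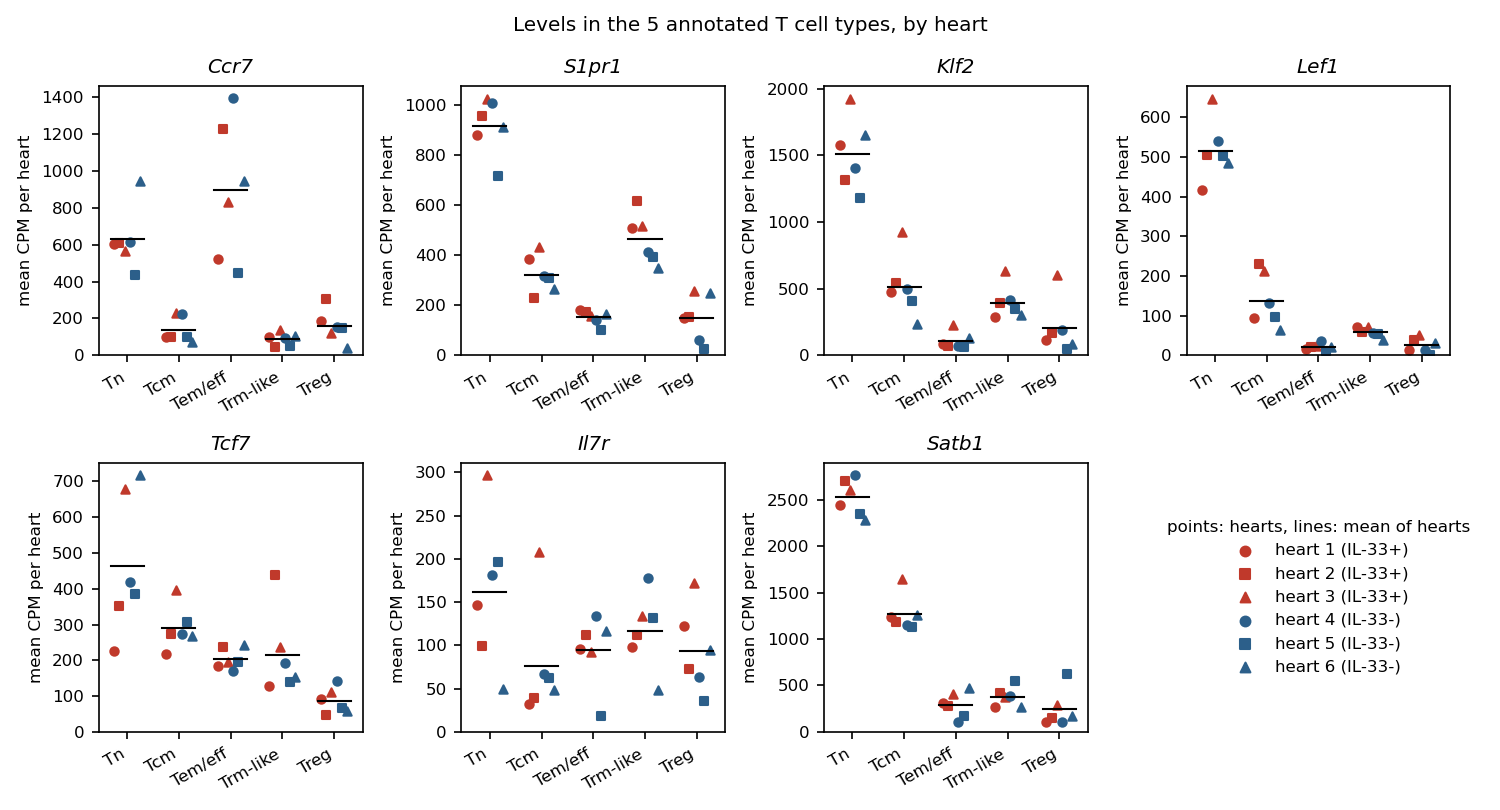
Mean CPM of each gene in the 5 annotated T cell types; points are hearts, red for IL-33+ and blue for IL-33-, and lines are means of the 6 hearts. Tn points lie above those of the other 4 types for S1pr1, Klf2, Lef1 and Satb1, whereas Ccr7 ran from 446 to 1392 CPM in Tem/eff and the groups' points are interleaved in Tn for all 7 genes.

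The ligands of these receptors were scarce in the isolates. Ccl19 had 42 UMIs and Ccl21a 63 UMIs in all 4441 cells, of which 40 and 54 were in fibroblasts, and Il7 had 15 UMIs. The values of Ccl19 and Ccl21a are means over several gene identifiers of the same symbol, so that their UMIs are approximate. Sphk1, which makes sphingosine 1-phosphate, and Spns2, which exports it, were also highest in annotated fibroblasts, at 36.8 and 22.9 CPM. The S1P lyase gene Sgpl1 was highest in macrophages at 246 CPM.

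The genes nearest to each member over the 14 types, among 11456 genes with a UMI in at least 1% of cells, were mostly also highest in Tn. This follows in part from their choice by likeness to members that were mostly highest in Tn. Exceptions included Sfi1, which was highest in NK cells. S1pr1 was closest to Rnf145 (r = 0.95), Lef1 to 1810041H14Rik (r = 0.96) and Tcf7 to Slc35g1 (r = 0.97). Satb1 was closest to Sfi1 (r = 0.93), Il7r to Rgs10 (r = 0.92) and Klf2 to D930016D06Rik (r = 0.91). The ribosomal protein gene Rplp1 came second for Lef1 (r = 0.95), and Med16 second for Ccr7 (r = 0.91). Med16, 1810041H14Rik and Slc35g1 had means of 41.4, 38.8 and 16.4 CPM in Tn, so that r rests on few UMIs there.

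The study asked what graft IL-33 changes in infiltrating cells, and the 7 genes were compared between graft groups within each type. In Tn, the type with the highest mean of all of them except Ccr7, none of the 7 was separated between groups. Klf2 was at 1581, 1319 and 1928 CPM in the IL-33+ hearts and 1404, 1182 and 1657 CPM in the IL-33- hearts. S1pr1 was at 880, 956 and 1026 CPM against 1007, 716 and 910 CPM. Both genes overlapped between groups. Lef1 was at 418, 505 and 647 CPM against 540, 502 and 485 CPM, and Satb1 at 2444, 2706 and 2611 CPM against 2771, 2354 and 2288 CPM. Ccr7 was at 606, 610 and 566 CPM against 614, 433 and 944 CPM. Tcf7 and Il7r varied most, Tcf7 from 226 to 719 CPM and Il7r from 49.5 to 298 CPM, with both extremes of Il7r and the upper values of Tcf7 in hearts 3 and 6.

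Neither the share of Tn among the 5 annotated T cell types nor the content of these genes per Tn cell differed detectably between groups. Tn made up 8.52%, 13.9% and 18.5% of the annotated T cells in the IL-33+ hearts and 29.8%, 9.15% and 7.14% in the IL-33- hearts. The means were 13.6% ± 5.01 and 15.4% ± 12.6 (SD, n = 3 each), and the two-sided exact permutation test over hearts gave p = 0.9. The thinned number of the 7 genes per Tn cell was 3.53, 3.64 and 4.41 in the IL-33+ hearts and 4.14, 3.73 and 4.00 in the IL-33- hearts, with an exact permutation p = 0.8. The smallest p that 3 hearts against 3 allow is 0.1.

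Across all types, no member passed the threshold between graft groups. Of the 98 combinations of gene and type, 87 passed the filter of at least 10 UMIs and a UMI in 3 hearts. Limma on log2(CPM + 10) with Benjamini-Hochberg adjustment over all genes of a type called 0 of the 87 at an adjusted p of 0.05, against 0.00884% of all 113178 combinations tested. At an unadjusted p of 0.05 or less there were 15 of 87, 13 higher in IL-33+ hearts and 2 lower, against 4.71% of all combinations. The groups did not overlap in 7 of the 87 (8.05%), against 9.82% of all combinations. The median log2 difference over the 87 was 0.11.

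Ccr7 in cDCs had the lowest p of the members in the limma fits. The hearts labelled IL-33+ had 586, 514 and 273 CPM and the hearts labelled IL-33- had 1164, 886 and 2144 CPM, so every IL-33- heart lay above every IL-33+ heart. The log2 difference of IL-33+ over IL-33- was -1.56 (SE 0.30; limma adjusted p = 0.12), and it did not pass. In cDCs, 5.09% of the genes tested were separated in this direction. Without the filter on low genes the limma adjusted p was 0.00049, and over all alternatives it ranged from 0.00049 to 0.84. The 0.84 came from the limma fit in which variances were not drawn towards those of genes of similar level. The groups had 38, 6 and 44 cDCs against 48, 9 and 26, so hearts 2 and 5 rest on few cells. Summed fibroblast markers in cDCs, all 7 detected, were also apart between groups, at 490 to 602 CPM in the IL-33+ hearts and 365 to 422 CPM in the IL-33- hearts, and their part in the result was not tested.

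Mature dendritic cells, which raise CCR7 as they leave a tissue, were looked at directly, a step added after the data were seen. A total of 48 of the 171 cDCs carried UMIs of at least 2 of the 6 mature DC markers Fscn1, Ccl22, Ccl17, Relb, Cacnb3 and Il4i1. They held 1021 of the 1123 Ccr7 UMIs, with a mean of 2911 CPM against 140 CPM in the others. With the rule applied after thinning, 25 cells met it and held 758 of the 1123 UMIs, at 4152 CPM against 364 CPM in the others. The share of the 48 cells was 26.3%, 33.3% and 11.4% of cDCs in the IL-33+ hearts and 33.3%, 33.3% and 46.2% in the IL-33- hearts (exact permutation p = 0.3). After thinning to 1500 UMIs the shares were 7.89%, 16.7% and 6.82% against 14.6%, 22.2% and 34.6% (exact permutation p = 0.2), and they overlapped. Within the 48 marker-bearing cells Ccr7 was at 2112, 1332 and 1393 CPM against 3113, 1507 and 4553 CPM, and within the others at 41.7, 105 and 129 CPM against 189, 576 and 79.7 CPM. Both sets of values overlapped between groups, and a larger share of mature cells and more Ccr7 per cell cannot be told apart with 2 to 16 such cells per heart.

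In Trm-like cells, S1pr1 was at 507, 617 and 518 CPM in the IL-33+ hearts and at 412, 393 and 349 CPM in the IL-33- hearts. The groups were apart, with means of 547 ± 60.4 and 384 ± 32.2 CPM (SD, n = 3 each). The log2 difference was 0.50 (SE 0.19; limma adjusted p = 0.92), and it stayed between 0.41 and 0.56 under the alternatives. Lef1 was also apart there, at 72.3, 58.4 and 71.3 CPM against 56.4, 53.6 and 39.9 CPM, by 0.37 on the log2 scale (SE 0.39; limma adjusted p = 0.95). In Trm-like cells 4.82% of the genes tested were separated with IL-33+ higher. Summed NK cell markers moved the same way there, with 6 of 7 detected and Ncr1 at 0, from 1301 to 2866 CPM in the IL-33+ hearts and from 510 to 1097 CPM in the IL-33- hearts. Annotated NK cells themselves had 146 CPM of S1pr1 and 42.8 CPM of Lef1, below the Trm-like means. The part of the NK cell transcripts in these differences was not tested. The other 4 separated combinations were Lef1 in NK cells, Il7r in unconventional T cells, Satb1 in B cells and S1pr1 in Mo-DCs, all higher in IL-33+ hearts with adjusted p of 0.84 or more. The last 3 included hearts with 2 to 7 cells of the type. Satb1 in B cells turned from 0.24 to -0.61 when each heart was centred on its median gene. The median log2 difference over the genes tested in B cells was 0.28, a different measure from the heart medians that were subtracted. Summed cDC markers in B cells, with 5 of 6 detected, were at 25.4 to 77.3 CPM in the IL-33+ hearts and 0 to 12.0 CPM in the others, and summed ILC2 markers in Mo-DCs, with 3 of 7 detected, at 83.0 to 104 CPM and 0 to 15.6 CPM. Their part was not tested.

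**Figure D4:**
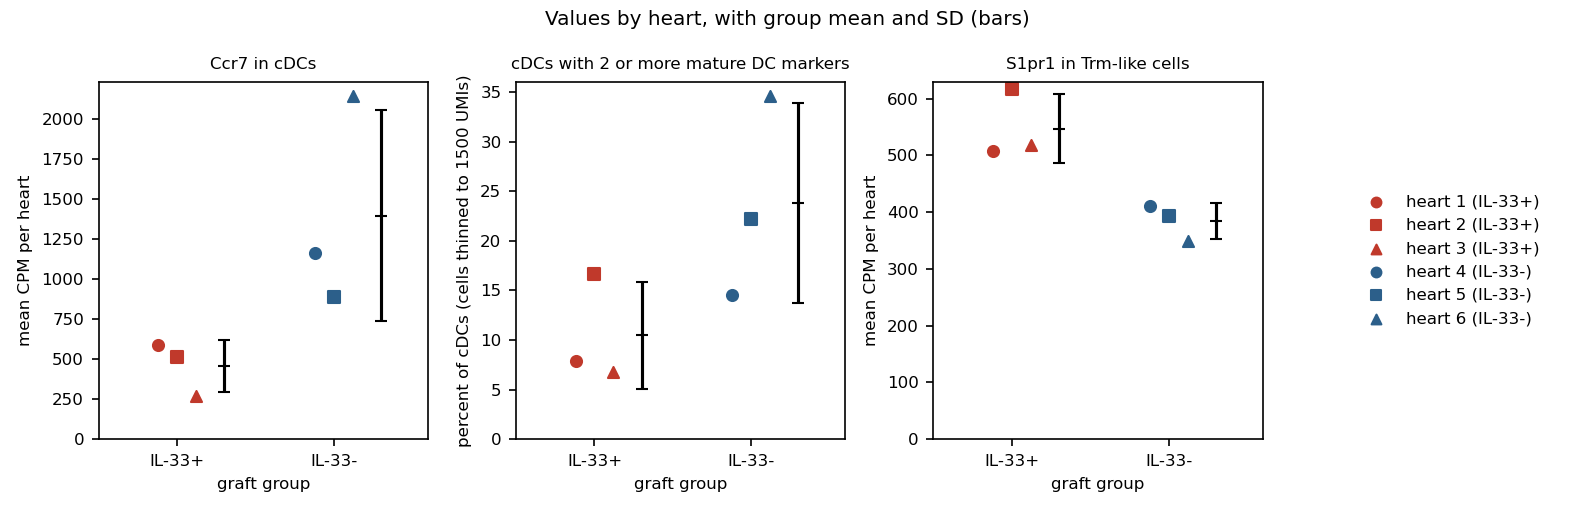
Values per heart for Ccr7 in cDCs (CPM), the share of cDCs with at least 2 mature DC markers after thinning (percent), and S1pr1 in Trm-like cells (CPM); bars give the group mean and SD. The Ccr7 and S1pr1 groups do not overlap, at 273 to 586 against 886 to 2144 CPM and 507 to 617 against 349 to 412 CPM, while the shares overlap.

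Heart 3 set much of the Klf2 pattern. Klf2 was higher in heart 3 than in any other heart in 13 of the 14 types, the exception being fibroblasts, where heart 1 led with 1026 CPM. In macrophages heart 3 had 513 CPM and the other hearts 55.2 to 151 CPM. In Tregs it had 603 CPM and the others 49.2 to 192 CPM. In NK cells it had 691 CPM and the others 269 to 337 CPM. The ratio of heart 3 to the mean of the other 5 hearts ran from 1.24 in fibroblasts to 5.07 in macrophages, with a median of 2.46, and it was 1.35 in Tn, where heart 3 had 1928 CPM.

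The pattern was scarce among genes. Of 4433 genes tested in all 14 types, Klf2 and Cxcr4 were the ones that were highest in heart 3 in 13 types or more, and a gene had its highest value in heart 3 in 11.9% of all gene and type pairs. In the same count S1pr1 was highest in heart 3 in 7 types. Heart 3 gave the most cells, 1666, at a median of 3291.5 UMIs per cell, the lowest of the 6 and close to the 3292.5 of heart 2. The group comparison of Klf2 moved with this heart. The mean of Klf2 was higher in IL-33+ hearts in 12 of 14 types with heart 3 and in 7 of 14 without it, and its median log2 difference over types went from 0.30 to -0.01. Of the 15 combinations of member and type with an unadjusted limma p of 0.05 or less, 7 remained so without heart 3. Others came in, and 12 of the 80 tested without heart 3 were at that level.

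**Figure D5:**
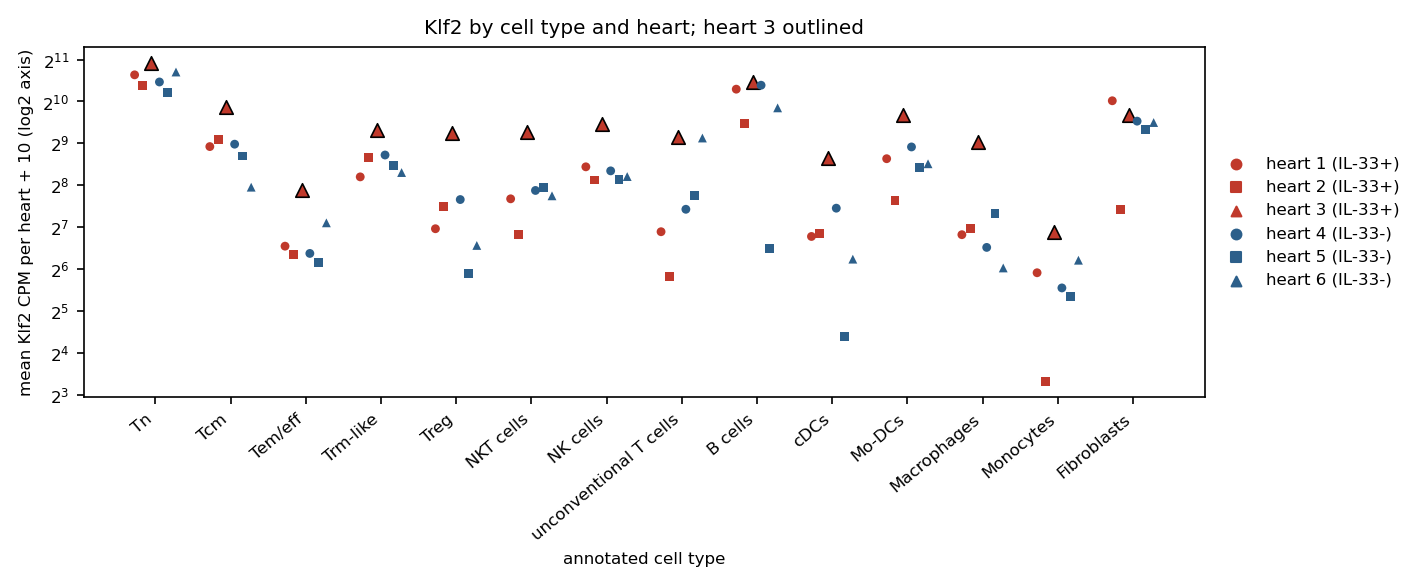
Mean Klf2 CPM per heart plus 10 (log2 axis) in the 14 types; red is IL-33+, blue is IL-33-, and heart 3 is outlined. Heart 3 is the highest point in every type except fibroblasts, and in macrophages its 513 CPM compares with 55.2 to 151 CPM in the other hearts.

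Tregs showed the most members with an unadjusted limma p of 0.05 or less, 3 of the 7 tested, all higher in IL-33+ hearts. Macrophages were close to this, with 2 of the 5 members tested there, also higher in IL-33+ hearts. The share of all Treg genes at that level was not taken, so the count does not set Tregs apart from other types. In Tregs, Ccr7 was at 187, 305.6 and 121 CPM against 156, 148 and 38.2 CPM, with a log2 difference of 0.90 (SE 0.41). Klf2 was at 115, 170 and 603 CPM against 192, 49.2 and 84.6 CPM, and S1pr1 at 148, 154 and 255 CPM against 60.7, 26.8 and 251 CPM. Each overlapped between groups, and the limma adjusted p was 0.88 for Klf2 and 0.92 for Ccr7 and S1pr1. Without heart 3 the Klf2 difference went from 1.20 to 0.52 and that of Ccr7 from 0.90 to 1.21. Summed NK cell markers, all 7 detected, were also higher in Tregs of the IL-33+ hearts, at 194 to 644 CPM against 137 to 183 CPM. Annotated NK cells had 502 CPM of Klf2, 146 CPM of S1pr1 and 21.6 CPM of Ccr7. The part of these transcripts was not tested, and none of the 3 members is called.

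Beside Ccr7 in cDCs, Ccr7 in unconventional T cells was the combination that was lower in IL-33+ hearts among the 15 with an unadjusted limma p of 0.05 or less. It was at 189, 0 and 163 CPM in the IL-33+ hearts, and 541, 90.8 and 324 CPM in the IL-33- hearts. Hearts 2 and 6 held 2 and 4 of the 83 cells, and 78 of the 83 carried UMIs of at least 2 of the 9 macrophage markers, beside summed T cell markers of 381 to 1579 CPM and at a median of 10175 UMIs per cell, the most of any type. The part of mixed cells in this value was not tested. The limma adjusted p was 0.98, but 0.030 without heart 3 and 0.0021 without heart 1. In B cells, Ccr7 and Klf2 passed when heart 6 was left out, at log2 differences of 2.61 and 1.63 with limma adjusted p of 0.014 and 0.025. Heart 5 was then 1 of 2 IL-33- hearts, and its 4 B cells held 0 CPM of Ccr7 and 80.5 CPM of Klf2.

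The 46 other genes of the lists gave no call either. Limma called 0 of 468 combinations at an adjusted p of 0.05, with a lowest value of 0.32, and 44 (9.40%) had an unadjusted p of 0.05 or less, against 4.71% of all combinations. Of the 237 combinations for the 20 naive and quiescence genes, 17 were higher and 8 lower in IL-33+ hearts at that level, with a median log2 difference of -0.01. Of the 142 for activation and residency genes, 8 were higher and 8 lower. The lowest p among the lists was that of Btg2, an antiproliferative gene of resting cells, in Tregs, at a log2 difference of 1.34 (SE 0.32; limma adjusted p = 0.32). Cd69, whose product holds S1PR1 inside the cell, differed by 1.20 in Tregs and 0.80 in Trm-like cells, with limma adjusted p of 0.62 and 0.92, and its groups did not overlap in either type.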

How the data were processed

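Immune cells of 6 Bm12 heart grafts, 3 labelled IL-33+ and 3 labelled IL-33-, were hashtagged and sequenced in 1 pooled 10x Genomics 3' library. The authors aligned the reads with Cell Ranger to mm10 and processed the counts in Partek (version 10.0.23.0425), keeping cells within limits on UMIs, genes and mitochondrial share, which served to take out likely doublets as well as poor or dead cells. The deposited values are log2(CPM + 1) per cell and gene symbol, scaled to a total of 1000000 UMIs per cell, with the authors' cell types, hashtag of origin and graft group beside them. How hashtags were assigned is not given in the sources used here, and no further doublet caller was run. The log2 scale was undone to CPM, and UMIs were recovered from the value of 1 UMI in each cell. Of low values, 99.94% were whole within 0.05 UMI, and none of the 7 genes held a mean over identifiers. Cells had 1500 to 14977 UMIs (median 3698), no barcode was repeated, and no column of per-sample values was left unused.

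Mean CPM was taken over the cells of a type in a heart. Genes with at least 10 UMIs and a UMI in at least 3 hearts were tested within each type with limma 3.58.1 (R 4.3.3; lmFit and eBayes with trend) on log2(CPM + 10), with IL-33+ over IL-33- hearts as the difference, and p-values were adjusted over all genes of the type. A fold change on this scale understates that of low genes. The limma function was also run on simulated summed counts, with a spread between hearts that was set and not taken from these data. That run does not measure how well differences between the present hearts are found. Shares and counts per cell were compared by two-sided exact permutation over the 3 and 3 hearts. Each heart carried its own hashtag and was the replicate in every test. Permutation p-values rest on the values of these 6 hearts alone. The limma SE and p do not measure a gene's own spread alone, since eBayes draws its variance towards that of other genes of similar level. Differences between types were not tested. Cells were thinned to 1500 UMIs where shares of cells are given, with exact (Clopper-Pearson) 95% intervals that cover counting error only. The genes, gene lists and tests were chosen with earlier results of these data known. Genes named were the 7 members, the listed genes and, for each member, the 3 genes with the highest r over types among those with a UMI in at least 1% of cells. Cxcr4 was named after its values were seen. Of the genes this rule names, 2 are not reported here by name. Promoter windows were from RefSeq, GRCm38.p6.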

Additional observations from a re-analysis of the deposited data

Results flagged for a closer look

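Cxcr6, a chemokine receptor of tissue T cells, had graft groups that were apart in opposite directions in different types, each with an unadjusted limma p of 0.05 or less. The difference between types was not tested. The log2 difference of IL-33+ over IL-33- was 0.63 in Tem/eff (SE 0.18; limma adjusted p = 1.00) and -1.90 in annotated fibroblasts (SE 0.74; limma adjusted p = 1.00). The fibroblast value rests on a mean level of 7.85 CPM, against 258 CPM in Tem/eff.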

How the results depend on the processing

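No paired analysis was possible because the hearts carry the numbers 1 to 6 and the groups share none. The count of members called between graft groups was 0 as reported and in 11 of 15 alternatives. It was 2 without the filter on low genes (Ccr7 in cDCs, lower in IL-33+ hearts, and Klf2 in B cells, higher), and 0 to 2 when a heart was left out: Ccr7 in unconventional T cells without heart 1 or without heart 3, and Ccr7 and Klf2 in B cells without heart 6. The count of other listed genes called was 0 as reported and in 11 of 15 alternatives, 2 without the filter, and 0 to 5 when a heart was left out, with 5 without heart 3, 2 without heart 1 and 1 without heart 2. The difference in the Tn share of T cells, IL-33+ minus IL-33-, was -1.73 percentage points and ran from -5.85 to 5.49 with a heart left out, positive without heart 1 or heart 4. The difference in members per Tn cell was -0.10, turned to 0.12 without thinning, and ran from -0.37 to 0.070 with a heart left out. Tn levels of the 7 genes moved by less than 1 SD of the hearts with summed UMIs or with the mean of heart means. For the 7 combinations whose groups did not overlap, 104 of 105 alternative values kept their direction. The exception was Satb1 in B cells, at -0.61 when each heart was centred on its median gene. The cause of these changes was not tested. The number of cells limits hearts 2 and 5, which held 9 or fewer unconventional T cells, cDCs, Mo-DCs, monocytes and fibroblasts each.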

Other observations

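Cxcr4, the receptor for CXCL12 that retains leukocytes in bone marrow and tissue, shared with Klf2 the place of highest heart, and was singled out after its values were seen. It was highest in heart 3 in 13 of 14 types, fibroblasts again being the exception. In Tcm it was at 1947 CPM in heart 3 and at 525 to 834 CPM in the other hearts. In B cells it was at 1781 CPM against 413 to 833 CPM, and in Tregs at 1468 CPM against 268 to 643 CPM. The ratio of heart 3 to the mean of the other hearts ran from 1.18 to 3.38 with a median of 2.05. In Tn, where S1pr1, Klf2 and Satb1 were highest, Cxcr4 was low, at 91.8 to 327 CPM.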
